A study of Mus musculus with 17 samples.

Results

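Beta cells that kept their insulin message after streptozotocin (STZ) were described here cell by cell. STZ is a toxin that enters beta cells through the glucose transporter GLUT2. The members were chosen from measured values: a cell of an STZ library with an insulin implant was kept when its Ins2 signal was at least 3000, was at least 3 times its Gcg, Sst and Ppy signals, and its Prss2 signal was under 1500. The signal is a gene's UMI count (UMIs are molecular tags that mark single cDNA molecules) per 100000 UMIs of the cell, with 8 hormone genes left out of the total. The rule kept 192 of the 1686 cells in 8 STZ libraries, out of 2999 cells in the whole series. It kept 359 cells of the 3 control libraries (209, 129 and 21 cells). Ins2, Gcg, Sst, Ppy and Prss2 were used to choose the cells, so their values are description only.

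The cells came from the pancreas of adult male Ngn3-Cre; Rosa-RFP mice, in which Cre recombinase made under the Ngn3 promoter labels the endocrine lineage with a red fluorescent protein, in STZ and control mice alike. Mice of 2 months received 1 intraperitoneal dose of 200 mg/kg STZ, and control mice received citrate buffer. Sorted red cells were picked by mouth pipette and sequenced by modified STRT-seq, which counts UMIs. The STZ libraries used here carry the names STZ_D6 (25 members), STZ_D12 replicate 1 (10 members) and replicate 2 (24 members), STZ_D30 (23 members), STZ_D42 (15 members), STZ_M2 (6 members), STZ_M5 (57 members) and STZ_M9 (32 members), for days or months after the injection. The design text also speaks of day 1 for STZ_D6, so the day of that library is unsure. All were from mice with insulin implants, and in STZ_M9 the implant had been stopped for the last 2 months. The number of mice behind each library is not given in the sources used here, so the spread between libraries may be partly technical.

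The lowest Ins2 signal of a member was 3070.63, and the highest of a cell left out by Ins2 alone was 2499.58. The lowest ratio of Ins2 to the next hormone was 3.27 in a member, and the highest among the 78 cells left out by the ratio alone was 2.98. Members had a median of 63314 UMIs (16898 to 250666) and 5520 detected genes. Some 37 members carried Gcg, Sst, Ppy or Pyy at 1000 or more, which is still under the rule's ratio for 3 of these hormones. These cells are called hormone-rich below, and 12 of them were in STZ_M9 and 5 of the 10 members of STZ_D12 replicate 1. No doublet caller was run, and whether these cells hold RNA of more than 1 cell was not tested. Members of different libraries shared 50 barcode numbers, but no pool and barcode combination occurred in more than 1 of the 168 members for which both were given.

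Members carried beta-cell markers that the rule did not use, several of them at lower levels than control, and some markers of other islet cells at higher levels. Ins1 was detected in every member, with library means from 3664 to 15943, and Iapp, the amylin gene, had library means from 6180 to 10338. The transcription factors Nkx6-1 and Pdx1 had library means of 8.55 to 25.2 and 5.86 to 19.2, against 26.2 to 40.3 and 18.6 to 25.5 in control. G6pc2 (39.8 to 212) and the granule zinc transporter gene Slc30a8 (16.2 to 79.4) lay below the control ranges of 432 to 622 and 94.9 to 122. Mafa was listed at 0 in every member and control cell and says nothing here. Of the delta-cell markers, Rbp4 (51.0 to 187) and Arg1 (1.33 to 5.17) lay above the control ranges of 7.25 to 15.6 and 0.620 to 1.09, while Hhex reached 1.07 and Ghsr 0.0581. Of the polypeptide-cell markers, Tspan8 (12.7 to 39.4) lay above control (4.16 to 6.36), and Pyy (145 to 1104) and Fxyd6 (29.7 to 70.3) overlapped it (87.2 to 316 and 24.5 to 40.2). The alpha-cell messages Ttr and Gc reached library means of 923 and 54.0, against at most 526.04 and 17.0 in control. The part of these markers in the results below was not tested, apart from the values given without hormone-rich cells. Among immune, endothelial and stromal markers, Lyz2 reached a library mean of 5.98 and H2-Aa of 3.27, Ptprc, Cd74, Pecam1, Plvap, Col1a1 and Dcn stayed at or under 0.661, and Cdh5 and Col3a1 were at 0. Acinar messages such as Prss2 were present in every member, at library means of 293 to 503, against 139 to 464 in control.

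A mature beta cell takes up glucose through GLUT2 (Slc2a2), releases insulin with urocortin 3 (Ucn3), which makes delta cells secrete somatostatin, and keeps the glucose-6-phosphatase G6pc2. These genes rise as beta cells mature and are known to fall in diabetic islets. Slc5a10 encodes a sodium-coupled sugar transporter known from kidney. Rbp4 encodes the blood carrier of retinol, and in mouse islets it is known as a delta-cell message. Gpx3 encodes a secreted glutathione peroxidase. The questions were how these 5 genes vary between surviving cells of the same library, and whether low Ucn3, low Slc2a2, high Slc5a10 and high Rbp4 are found in the same cells.

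Within a library, single cells ranged from no UMI to high values in Ucn3, Slc2a2, Slc5a10 and Rbp4. The library mean of Ucn3 lay between 3.28 and 22.5 per 100000, against 84.3 to 122.8 in control. The median cell had 0 in 4 of 8 STZ libraries, while single cells reached 130. Slc2a2 had library means of 2.22 to 14.3 against 59.3 to 85.03 in control, and its highest cell was at 80.8. For either gene, some surviving cells sat at the level of control cells, beside cells of the same library with no UMI.

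Slc5a10 had library means of 7.95 to 36.1, against 0 to 0.232 in control, yet a UMI was found in only 30% to 80% of the members of a library. Its median over members was 0 in 4 libraries and highest in STZ_D42, at 34.8. Rbp4 had library means of 51.0 to 187, while its medians were 4.23 to 58.7, since a few cells held most of it: single cells reached 1226. Gpx3 was found in nearly all members, with library medians of 122.5 to 398.7, against 5.14 to 10.8 in control. Because these 5 genes were chosen from earlier results of these data, their library means beside those of control are descriptions.

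**Figure D1:**
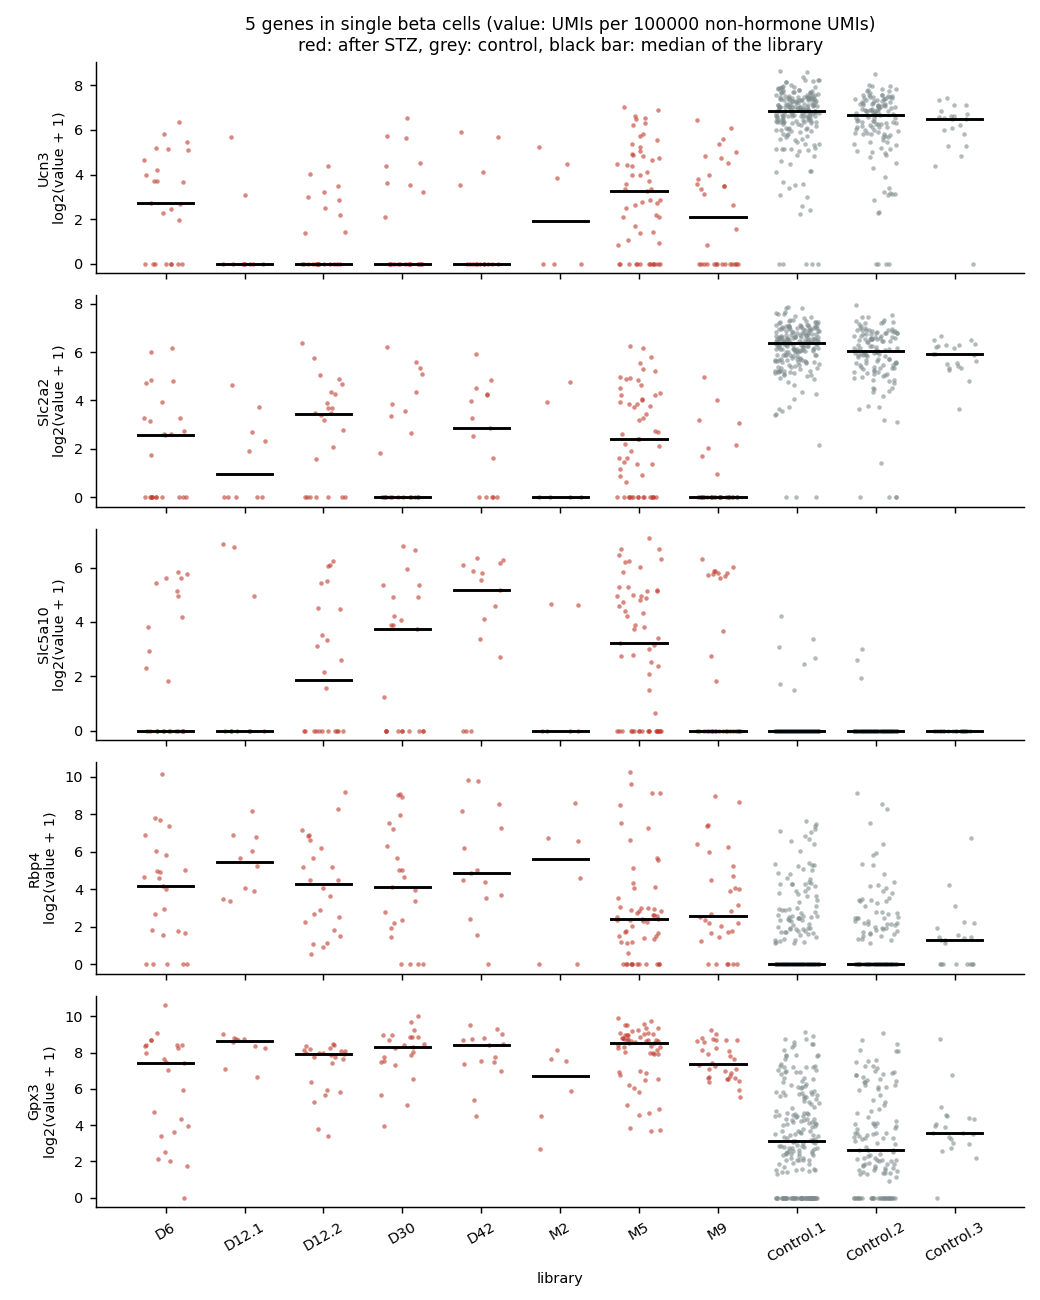
Signal of Ucn3, Slc2a2, Slc5a10, Rbp4 and Gpx3 in single cells, on a log2(value + 1) axis, by library. Each point is 1 of the 192 members (red) or 359 control cells (grey) and each black bar is the library median; the Ucn3 bar is at 0 in 4 of 8 STZ libraries while single red points reach the grey cloud.

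To see how much of this spread lay within libraries, each cell was thinned at random to 19246 UMIs outside the hormone genes, which left out 16 shallower members. In the remaining 176 members, 91.2% of the variance of log2(UMIs + 1) of Ucn3 lay within libraries, as did 90.0% for Slc2a2, 95.4% for Slc5a10, 91.7% for Rbp4 and 87.7% for Gpx3. Txnip, a gene induced by glucose, had 68.3% within libraries and so differed more between libraries than these. Thinned, Ucn3 was detected in 51.7% of members (55.7% unthinned), against 97.8% of 320 control cells and 1.97% of 254 glucagon-dominated cells of the same libraries, which should lack it. Slc2a2 was detected in 45.5% of members (56.3% unthinned) and in 4.33% of the glucagon-dominated cells, and Slc5a10 in 51.7% (55.2% unthinned) and in 1.18%. Their median depths before thinning were 63314 UMIs in members and 37742 in glucagon-dominated cells. Rbp4 and Gpx3 were in 100% of the glucagon-dominated cells, at means of 31.8 and 149 thinned UMIs against 15.1 and 53.5 in members.

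Few cells had control-range levels of both Ucn3 and Slc2a2. The 10th percentile of thinned control cells was 5 UMIs for Ucn3 and 4 for Slc2a2. At least that much Ucn3 was found in 36 of 176 members (20.5%, exact 95% binomial interval 14.8% to 27.2%, counting error only), in 7 of the 8 libraries and in none of the 24 of STZ_D12 replicate 2, which allows a share of up to 14.2% there by the same interval. At least that much Slc2a2 was found in 33 members (18.8%, interval 13.3% to 25.3%). Both were found in 6 members, 5 of them in STZ_M5 and 1 in STZ_D30. So 16.7% of the cells with control-range Ucn3 had control-range Slc2a2, and 19.3% of the 140 other cells did. Within 1 UMI of the limit lay 9 members for Ucn3 and 25 for Slc2a2, so the second class in particular is a range and not a type.

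Slc5a10 and Rbp4 were found both in cells low in Ucn3 and Slc2a2 and in the other cells. Of the 113 thinned members below both control ranges, 39 (34.5%) had UMIs of both Slc5a10 and Rbp4. Of the 63 other members, 27 (42.9%) had both. Slc5a10 went with Slc2a2: of 91 members with a Slc5a10 UMI, 62 (68.1%) had a Slc2a2 UMI, and of 85 members without Slc5a10, 18 (21.2%) had one. For Ucn3 the shares were closer: 43 of the 91 (47.3%) and 48 of the 85 (56.5%) had a Ucn3 UMI. These shares pool cells of 8 libraries and are descriptions.

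**Figure D2:**
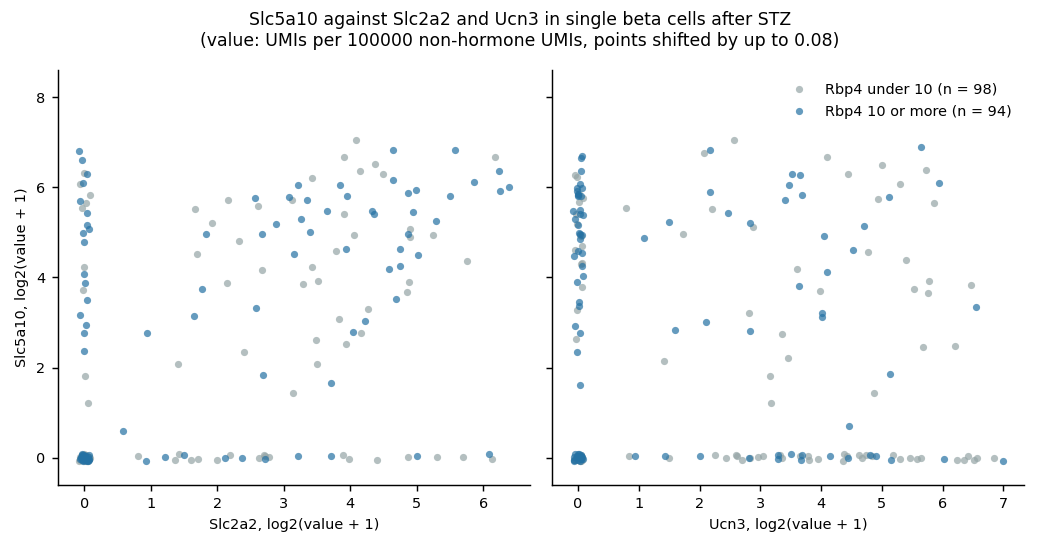
Slc5a10 against Slc2a2 (left) and against Ucn3 (right) in the 192 members, on log2(value + 1) axes, with small random shifts of the points. Cells with a Slc2a2 signal mostly carry Slc5a10, while cells with a Ucn3 signal lie both at 0 and high on the Slc5a10 axis; blue points (94 cells) have an Rbp4 signal of 10 or more and grey points (98 cells) less.

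The same question was then asked with the library as the replicate. In each library with at least 3 cells on each side, cells above the library's median of a gene were set against the others, and the mean log2(value + 1) of a second gene was compared. Between Slc2a2-high and Slc2a2-low cells, Slc5a10 differed by 0.12 in STZ_D6, 0.96 in STZ_D12 replicate 1, 2.25 in STZ_D12 replicate 2, 2.42 in STZ_D30, 2.01 in STZ_D42, 2.64 in STZ_M5 and 3.49 in STZ_M9. The mean difference was 1.99 ± 1.12 (SD, n = 7 libraries), on the side of the Slc2a2-high cells in 7 of 7 (exact two-sided sign permutation p = 0.0156, the smallest that 7 libraries can give; 0.0781 adjusted over 10 pairs). It was 1.45 in thinned cells (adjusted exact permutation p = 0.117) and 0.86 with a pseudocount of 10 in place of 1, and the Slc2a2-high cells were deeper in 6 of 7 libraries. No pair of the 10 reached an adjusted p under 0.05, so the pairs below are given as values.

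Rbp4 had a lower mean in Ucn3-high cells and a higher one in Slc2a2-high and Slc5a10-high cells. Between Ucn3-high and Ucn3-low cells, Rbp4 differed by -1.22 ± 1.07 (SD, n = 7; lower in 6 of 7, exact permutation p = 0.0313, adjusted 0.0781), from -3.21 in STZ_D30 to 0.38 in STZ_D6. Between Slc2a2-high and Slc2a2-low cells it differed by 0.91 ± 0.66 (SD, n = 7; higher in 6 of 7, exact permutation p = 0.0313, adjusted 0.0781). Between Slc5a10-high and Slc5a10-low cells it differed by 1.07 ± 0.88 (SD, n = 7; higher in 6 of 7, the same exact permutation p). In thinned cells these 3 differences were -0.73, 0.41 and 0.80, and without hormone-rich cells the last was 0.61. Between Ucn3 classes, neither Slc2a2 (difference 0.25 ± 0.91, adjusted exact permutation p = 0.556) nor Slc5a10 (-0.35 ± 1.56, adjusted exact permutation p = 0.609; 2 libraries higher and 5 lower, from -2.07 in STZ_D12 replicate 2 to 2.095 in STZ_D42) differed beyond the spread between libraries. Gpx3 differed by -0.57 between Ucn3 classes, -0.41 between Slc2a2 classes, 0.54 between Slc5a10 classes and 0.84 between Rbp4 classes, with adjusted exact permutation p from 0.188 to 0.488 over 7 or 8 libraries.

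**Figure D3:**
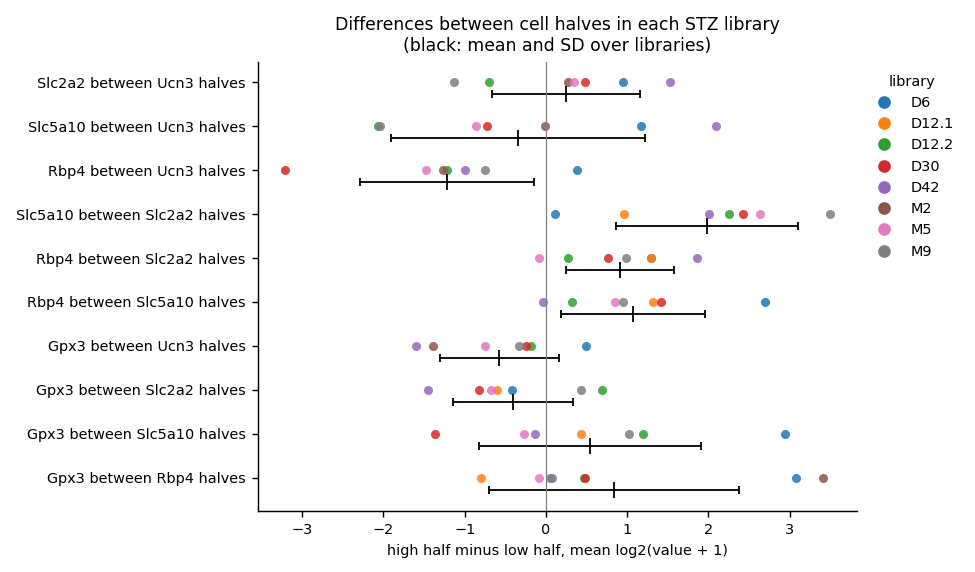
Difference in mean log2(value + 1) between cells above and not above the library median of the dividing gene, for 10 pairs of genes. Each coloured point is an STZ library and the black bar is the mean ± SD over 7 libraries (8 for the division by Rbp4); Slc5a10 between Slc2a2 classes lies above 0 in all 7.

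Rank correlations over cells, given as descriptions for the 6 libraries with at least 15 members, had the same signs for these pairs. Spearman's rho of Slc2a2 with Slc5a10 averaged 0.42 (-0.04 to 0.60), and that of Ucn3 with Rbp4 averaged -0.20 (-0.59 to -0.09, negative in all 6). Ucn3 with Slc2a2 averaged 0.03 (-0.31 to 0.33). The points of a library share its depth and its scaling, and Ins2 itself was lower in cells with more UMIs (rho -0.92 to -0.63), while the 5 genes had mean rho between -0.15 and 0.19 with that total.

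Ucn3-high cells had more message of several genes known from mature beta cells and less of Dlk1. UMI counts were summed per library and class and compared with edgeR's quasi-likelihood test, with the library as a block, over all genes that passed the count filter. Of 6976 genes, 12 were called at an adjusted p under 0.05 (0.172%), 7 higher (0.1%) and 5 lower (0.0717%) in Ucn3-high cells. G6pc2, the islet glucose-6-phosphatase, was at 94.7 to 300 per 100000 (median 244) in the Ucn3-high cells of the 7 libraries and at 27.7 to 165 (median 58.2) in the Ucn3-low cells. It was higher in 7 of 7 (log2 fold change 1.66, SE 0.25, adjusted p = 0.00110). Ero1lb, the oxidase that helps proinsulin fold, was at 34.7 to 140 (median 116) against 24.9 to 71.0 (median 52.8), again higher in 7 of 7 (1.09, SE 0.14, adjusted p = 0.000184).

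The granule-docking protein gene Sytl4 (log2 fold change 1.69), the serine protease gene Prss53 (1.295) and Pappa2, a protease of IGF-binding proteins (1.55), were each higher in 7 of 7 libraries. Cox6a2, a subunit of cytochrome c oxidase, was at 0 to 19.3 (median 6.71) in Ucn3-high cells and 0 to 2.63 (median 0) in Ucn3-low cells (3.96, SE 0.55, adjusted p = 0.000555). Tmem215, a membrane protein gene, was at 0 to 24.6 (median 9.67) against 0 to 4.93 (median 1.86). Both were higher in 6 of 7 libraries and equal in the other. Cox6a2 was detected in 18.2% of members, so its values rest on few cells. Ucn3-high cells were deeper in 5 of 7 libraries, and in thinned cells 8 genes were called and 6 of the 12 remained. G6pc2 and Ero1lb passed the threshold in all 14 alternatives. Cox6a2 and Tmem215 passed wherever they were tested, but neither was among the genes tested in thinned cells. Cox6a2 was not tested without STZ_M5 either. Sytl4 missed the threshold in thinned cells (0.92, adjusted p = 0.392). Pappa2 missed it in thinned cells (1.39, adjusted p = 0.0994) or without STZ_M5 (1.49, adjusted p = 0.0727), and Prss53 without STZ_D12 replicate 2 (1.13, adjusted p = 0.0786) or STZ_D42 (1.18, adjusted p = 0.0642).

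Among the genes lower in Ucn3-high cells were Dlk1, Pyy, Ppy and Tmem27. Dlk1, an imprinted Notch-ligand relative active in fetal tissue, had a median of 0.877 over libraries against 7.63 in Ucn3-low cells (log2 fold change -2.31, SE 0.42, adjusted p = 0.00870, lower in 6 of 7). The hormone gene Pyy had medians of 78.6 and 305 (-1.69, lower in 7 of 7). Ppy was used by the rule and gets no reading. Tmem27, a membrane protein gene of beta cells, was lower in 7 of 7 (-0.73, SE 0.13, adjusted p = 0.00544). Dlk1 was detected in 24.0% of members. It was not among the genes tested in thinned cells or without STZ_D12 replicate 2 or STZ_D30. Dlk1 missed the threshold without STZ_M9 (-1.86, adjusted p = 0.0809). Pyy missed it without STZ_D30 or STZ_D42 (adjusted p 0.0710 and 0.131), within sequencing run (-1.54, adjusted p = 0.0538) and with DESeq2 (-1.72, adjusted p = 0.154). Without hormone-rich cells Pyy was at -0.47 (adjusted p = 0.777) and Tmem27 at -0.52 (adjusted p = 0.0760).

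By list, 5 of 14 tested genes of beta-cell maturity were higher and 1 (Tmem27) lower in Ucn3-high cells, with a median log2 fold change of 0.46, against -0.00 over all genes tested. Of 18 genes that earlier results of these data listed as gained after STZ, 1 was lower (Dlk1) and 17 had a negative sign, with a median of -0.57. Of 9 tested genes of immature or dedifferentiated beta cells, 2 were lower (Dlk1 and Pyy). The unfolded protein response had 1 of 24 genes called (Ero1lb) and cholesterol synthesis 0 of 16 (1 with an unadjusted p under 0.05). These lists were chosen with earlier results known, and their counts are descriptions beside the 0.172% over all genes.

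Markers of pancreatic polypeptide cells also differed between the Ucn3 classes. The summed Pyy, Tspan8 and Fxyd6 signal was 99.8 to 866 in the Ucn3-high cells and 271 to 1970 in the Ucn3-low cells, lower in 7 of 7 libraries. Hormone-rich cells were 8 of the 82 Ucn3-high cells and 24 of the 100 Ucn3-low cells. Leaving them out also took STZ_M2 out of the comparison. Then 8 genes were called, and 6 of the 12 remained: Cox6a2, Dlk1, Ero1lb, G6pc2, Sytl4 and Tmem215. With all cells but without STZ_M2, 21 genes were called and all 12 remained. The part of mixed hormone content in the other calls was not tested. The summed alpha-cell markers were higher in 4 and lower in 3 of 7 libraries. Of 9 tested genes of the longer alpha-cell list, 1 was called (Tmem27, lower), with 3 positive and 6 negative (median log2 fold change -0.07). Tmem27 is thus on both the maturity and the alpha-cell list. The immune, endothelial and stromal sums stayed at or under 4.2. With cells divided within sequencing run, 13, 16, 23 and 3 genes were called for Ucn3, Slc2a2, Slc5a10 and Rbp4, among them 11, 15, 22 and 2 of the genes called without that division.

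Spearman's correlations across cells, here and below, draw on the same cells and signal as the class comparisons. Shared genes are therefore no separate support. Of 7287 genes, 313 kept one sign with Ucn3 in all 6 libraries, and the number that chance alone would give was not worked out. The highest mean rho with Ucn3 were those of G6pc2 (0.53), Ero1lb (0.42), Pappa2 (0.38), Sytl4 (0.37), Prss53 (0.36), the cytochrome c oxidase gene Cox8a (0.36), the granule protein gene Scg2 (0.35) and Ins1 (0.33). The most negative were Tmem27 (-0.30), the calcium channel gene Itpr1 (-0.29), Btbd10 (-0.27) and Pkib (-0.27), an inhibitor of protein kinase A.

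Slc5a10-high cells had more message of Aqp4, Gpi1 and Ifi30 and less of B2m. Between Slc5a10-high and Slc5a10-low cells of 7 libraries, 28 of 7121 genes were called (0.393%), 26 higher (0.365%) and 2 lower (0.0281%). The water channel gene Aqp4 was at 28.3 to 72.2 (median 40.7) in Slc5a10-high cells and 5.05 to 31.6 (median 7.96) in Slc5a10-low cells, higher in 7 of 7 (log2 fold change 1.96, SE 0.21, adjusted p = 2.01e-05).

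Among glycolysis genes, 3 of 15 tested were higher, Gpi1 and Eno1 among them, with a median log2 fold change of 0.18 against -0.02 over all genes. Gpi1, which turns glucose 6-phosphate into fructose 6-phosphate, was at 24.0 to 61.0 (median 35.3) against 10.7 to 39.1 (median 13.4), higher in 7 of 7 (1.23, SE 0.17, adjusted p = 0.000665). The enolase gene Eno1 was higher in 7 of 7 as well (1.04, SE 0.22, adjusted p = 0.0334). Txnip, whose product inhibits thioredoxin and is induced by glucose, had a log2 fold change of 0.96 (SE 0.18, adjusted p = 0.01004, higher in 6 of 7). Eno1 missed the threshold without STZ_D12 replicate 2, STZ_D30, STZ_D42, STZ_M5 or STZ_M9 (0.87 to 1.09, adjusted p 0.0588 to 0.178), within sequencing run (adjusted p = 0.0527) and without hormone-rich cells (0.99, adjusted p = 0.134), and Txnip without STZ_D12 replicate 2, STZ_D30 or STZ_M9 (0.83 to 0.90, adjusted p 0.0533 to 0.0568).

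Of 17 tested cholesterol synthesis genes, 2 were called and all 17 had a positive sign, with a median of 0.69. Hmgcs1, which makes HMG-CoA, had medians of 15.2 and 4.92 (1.43, SE 0.29, adjusted p = 0.0211, higher in 7 of 7). Without STZ_D6, STZ_D42 or STZ_M5 its adjusted p was 0.0699 to 0.0914. Fdft1, squalene synthase, was at 1.04 (adjusted p = 0.0401), and its adjusted p was 0.0833 to 0.201 without any 1 of 6 libraries (all but STZ_D12 replicate 2), 0.117 in thinned cells, 0.0670 within sequencing run and 0.153 without hormone-rich cells. Acly, which makes cytosolic acetyl-CoA for lipid synthesis, was at 125 to 236 (median 165) against 69.1 to 141 (median 81.8), higher in 7 of 7 (0.89, SE 0.15, adjusted p = 0.00544). Without hormone-rich cells Acly was at 0.58 (adjusted p = 0.153). Aacs, which activates acetoacetate for lipid synthesis, was at 1.1995 (adjusted p = 0.00893), with an adjusted p of 0.0887 without STZ_M5, 0.0871 within sequencing run and 0.257 without hormone-rich cells (0.96). Acly and Aacs were outside the rule for named genes in this comparison and were picked after their values were seen, as were Ifi30, Etfb, C1qa and Sh2d5 below.

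The other called genes that were higher included the prostaglandin E2 receptor gene Ptger3 (log2 fold change 1.99), Ambp, the precursor of alpha-1-microglobulin and bikunin (1.49), Kcnab3, a potassium channel subunit (1.70), Tmie (1.76), Pdlim7 (1.63), Ttc25 (1.59) and 6330403K07Rik (2.1), with adjusted p from 0.00544 (Ambp) to 0.0397 (Ttc25). All were higher in 7 of 7 libraries except 6330403K07Rik, which was at 12.02 against 15.3 in STZ_M5. Apart from Tmie, none passed without hormone-rich cells (adjusted p 0.138 to 0.196). The threshold was missed in 7 of 13 alternatives by Ttc25, 6 of 14 by Kcnab3, 5 of 14 by 6330403K07Rik, 4 of 13 by Tmie and 3 of 14 by Pdlim7, and without STZ_M5 by Ptger3 as well (adjusted p = 0.0596). Without STZ_M9 the adjusted p was 0.0925 for Kcnab3, 0.179 for 6330403K07Rik and Tmie, 0.0574 for Pdlim7 and 0.215 for Ttc25. The lysosomal reductase gene Ifi30 (1.35) and Etfb (0.79), of the mitochondrial fatty acid oxidation chain, were higher in 7 of 7, and Etfb missed the threshold without hormone-rich cells (0.60, adjusted p = 0.165). C1qa, a complement gene known from macrophages, was higher in 7 of 7 (1.00, adjusted p = 0.0426), at medians of 23.9 and 13.6. Its adjusted p was 0.0530 to 0.216 without any 1 of 6 libraries (all but STZ_D30) and 0.807 without hormone-rich cells. The summed immune markers Ptprc, Cd74, Lyz2 and H2-Aa were at 0 to 13.0 in Slc5a10-high and 0 to 8.57 in Slc5a10-low cells, each with a median cell at 0, and their part in C1qa was not tested.

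Lower in Slc5a10-high cells were B2m, the light chain of MHC class I, and Pim3, a kinase. B2m was at 1.63 to 7.80 (median 4.44) against 7.25 to 20.8 (median 11.1), lower in 7 of 7 (log2 fold change -1.54, SE 0.22, adjusted p = 0.000689). Pim3 was lower in 7 of 7 (-1.09, SE 0.21, adjusted p = 0.0145), and missed the threshold without STZ_D12 replicate 2, STZ_D30 or STZ_M9 (adjusted p 0.0588 to 0.0925) or hormone-rich cells (-1.19, adjusted p = 0.165). B2m was the 1 called gene of 11 tested in antigen presentation. Of 15 tested maturity genes, 0 were called (1 with an unadjusted p under 0.05, and a median of 0.06). The p53 list had 0 of 13 called, all 13 negative (median -0.37), and the beta-cell transcription factors 0 of 14, with 13 negative (median -0.30). The unfolded protein response had 0 of 24 called, 20 positive (median 0.24).

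The Slc5a10-high cells were deeper in 6 of 7 libraries, with medians of 66198 and 61628 UMIs over all cells and of 121172 and 76616 in STZ_M9. In thinned cells, 21 genes were called by edgeR, and 17 of the 28 remained. Hormone-rich cells were 11 of 86 Slc5a10-high and 24 of 100 Slc5a10-low cells. Summed polypeptide-cell markers were lower in Slc5a10-high cells in 6 of 7 libraries, with means of 322 and 675. Summed delta-cell markers were higher in 7 of 7 (means of 137 and 62.4). Most of that sum was Rbp4, at library medians of 121 and 43.3. Of 6 tested genes of the delta-cell list 0 were called, with 4 positive and 2 negative. Summed ductal markers were lower in 6 of 7 (39.2 and 56.4). The longer ductal-cell list did not share that direction. Of its 7 tested genes 1 was called (Ambp, higher), with 5 positive and 2 negative (median log2 fold change 0.11). The part of these marker sums in the calls was not tested. Without hormone-rich cells, which also took STZ_D12 replicate 1 out of the comparison, 11 genes were called, 9 of them from the 28, among them Aqp4, B2m, Gpi1, Hmgcs1, Ifi30, Sh2d5, Tmie and Txnip. With all cells but without STZ_D12 replicate 1, 26 genes were called and 23 of the 28 remained. Without STZ_M5 the count was 15, without STZ_M9 16 and without STZ_D12 replicate 2 18. Aqp4, B2m, Gpi1 and Ifi30 passed the threshold in all 14 alternatives.

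Correlations over cells named further enzymes. The highest mean rho with Slc5a10 were those of Aqp4 (0.60), Acly (0.56), Gpi1 (0.56), Eno1 (0.55), the pyruvate kinase gene Pkm (0.53), Ifi30 (0.52), Tmem50a (0.50) and Sorcs2 (0.49). The most negative were the ketone-using enzyme gene Oxct1 (-0.40), B2m (-0.34), Tm4sf4 (-0.34) and Syt13 (-0.34).

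Slc2a2-high cells had more message of G6pc2, Aqp4 and Acly and less of the metallothioneins, but none of these calls held without hormone-rich cells. Of 7142 genes, 15 were called between Slc2a2-high and Slc2a2-low cells (0.21%), 7 higher (0.098%) and 8 lower (0.112%). G6pc2 was at 46.5 to 245 (median 152) against 33.2 to 181 (median 74.2), higher in 6 of 7 libraries (log2 fold change 0.78, SE 0.13, adjusted p = 0.00463). Bace2, a protease of the beta cell that cleaves Tmem27, was higher in 7 of 7 (0.75, adjusted p = 0.0472). Bace2 missed the threshold without any 1 of 6 libraries (all but STZ_D12 replicate 1; adjusted p 0.0682 to 0.190). These were the 2 called genes of 14 tested in the maturity list (median 0.22, against -0.00 over all genes).

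Aqp4 (log2 fold change 1.29) and Acly (0.55) were higher in Slc2a2-high cells in 7 of 7 libraries, as they were in Slc5a10-high cells. Aqp4 missed the threshold without STZ_M9 (1.27, adjusted p = 0.0512), and Acly without STZ_D12 replicate 2, STZ_D30, STZ_D42, STZ_M5 or STZ_M9 (0.49 to 0.59, adjusted p 0.0925 to 0.190). Rbp4 was called too (1.08, SE 0.23, adjusted p = 0.0472, higher in 5 of 7), as was Pdyn, the dynorphin precursor (1.05). The call of Rbp4 was lost in thinned cells (0.21, adjusted p = 0.981) and without STZ_D6, STZ_D12 replicate 1 or 2, STZ_D42 or STZ_M9 (0.89 to 1.09, adjusted p 0.0566 to 0.359), and that of Pdyn in thinned cells (0.45, adjusted p = 0.784) and without STZ_D6, STZ_D12 replicate 2 or STZ_D42 (adjusted p 0.0883 to 0.102). Lower were the metallothionein genes Mt1 and Mt2, which bind zinc and answer to metal and oxidative stress. Mt1 was at 62.7 to 259 (median 97.0) against 85.5 to 368 (median 165), lower in 7 of 7 (-1.0001, SE 0.13, adjusted p = 0.000657), and Mt2 was lower in 6 of 7 (-1.24, SE 0.18, adjusted p = 0.00169).

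Pim3 (log2 fold change -1.41), Tspan8 (-0.98), the G-protein regulator gene Rgs2 (-0.58), the granule protein gene Chga (-0.46) and Spp1, osteopontin (-2.12), were lower as well. Spp1, also a ductal marker, was lower in 5 and higher in 2 libraries. Of 14 alternatives, Chga missed the threshold in 9, Rgs2 and Spp1 in 7 each, Tspan8 in 2 and Pim3 in 1. Ppy, the other called gene, was used by the rule. All 11 tested genes of antigen presentation had a negative sign (median -0.38), with 0 called.

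None of the 15 calls held without hormone-rich cells. Such cells were 8 of 82 Slc2a2-high and 27 of 104 Slc2a2-low cells. Leaving them out, which also took STZ_D12 replicate 1 out of the comparison, gave 0 called genes by edgeR, with 356 at an unadjusted p under 0.05. DESeq2 was not run on those cells. With all cells but without STZ_D12 replicate 1, 15 genes were called and 12 of the 15 remained. Without hormone-rich cells each of the 15 kept its sign: Rbp4 was at 1.68 (adjusted p = 0.0677), Aqp4 at 0.75 (0.355), Mt1 at -0.84 (0.556), Mt2 at -0.88 (0.868), Acly at 0.43 (0.838) and G6pc2 at 0.47 (0.854). Summed polypeptide-cell markers were lower in Slc2a2-high cells in 7 of 7 libraries, with means of 363 and 666, and so were the summed ductal markers, with means of 36.3 and 59.7. Without STZ_D6, STZ_D42 or STZ_M9 the count of called genes was 9, 7 and 8. In STZ_M9 the Slc2a2-high cells had a median of 132724 UMIs against 78925.

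Among the highest mean rho with Slc2a2 over cells were those of Syndig1l (0.45), Acly (0.43), the pyruvate dehydrogenase kinase gene Pdk1 (0.38), Tmem50a (0.37), Aqp4 (0.37), Tmbim6 (0.37) and Slco1a6 (0.37). The lowest were Tspan8 (-0.32), Gm2000 (-0.31), the ribosomal protein gene Rpl37 (-0.30) and Ndufv1 (-0.29).

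Rbp4-high cells differed from Rbp4-low cells in 2 of 6660 genes (0.03%), both higher in 8 of 8 libraries. Ffar4, the long-chain fatty acid receptor GPR120, was at 1.89 to 16.1 (median 7.69) against 0 to 2.20 (median 0.515; log2 fold change 3.43, SE 0.46, adjusted p = 0.00107). Ffar4 fell under the expression limit of the rule for named genes and is named because the count is 2. Ffar4 was detected in 29.7% of members. It passed the threshold wherever it was tested, but was not among the genes tested in thinned cells or without hormone-rich cells. Leaving out hormone-rich cells also took out STZ_D12 replicate 1 and STZ_M2, and then 3 genes were called and 0 of the 2 remained. Rbp4-high cells were deeper in 1 of 8 libraries, with medians of 59885 and 67643 UMIs over all cells. Without STZ_D12 replicate 1, STZ_M2 or STZ_M9 the count of called genes was 11, 6 and 8. Of the 14 tested maturity genes 0 were called, 10 negative (median -0.39), and of 15 cholesterol genes 0 were called, 14 positive (median 0.43). The other delta-cell markers Hhex, Arg1 and Ghsr summed to 0.638 to 9.60 in Rbp4-high and 0.733 to 3.45 in Rbp4-low cells, higher in 6 of 8. The alpha-cell marker sum was lower in Rbp4-high cells in 7 of 8 libraries.

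With Rbp4 over cells went Itpr1 (mean rho 0.43), 1700086L19Rik (0.42), the glucose-responsive transcription factor gene Mlxipl (0.39), Dusp26 (0.37), Dbpht2 (0.37), Anpep (0.35) and the glucagon receptor gene Gcgr (0.35). Against it went the prolactin receptor gene Prlr (-0.42), Gc, the vitamin D carrier of alpha cells (-0.39), B2m (-0.32) and Abcg1 (-0.31). For Gpx3 the highest was Necab2 (0.34).

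Some called genes were shared between the comparisons. Of the 15 genes called for Slc2a2 and the 28 for Slc5a10, 4 were shared (26.7% and 14.3%), all with the same sign, Acly, Aqp4 and Pim3 among them. Ucn3 and Slc5a10 shared 1 (8.33% and 3.57%). Ucn3 and Slc2a2 shared 3 (25% and 20%), among them G6pc2 with the same sign and Ppy, which was used by the rule. The 4 comparisons divide the same cells, so these overlaps are not independent.

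**Figure D4:**
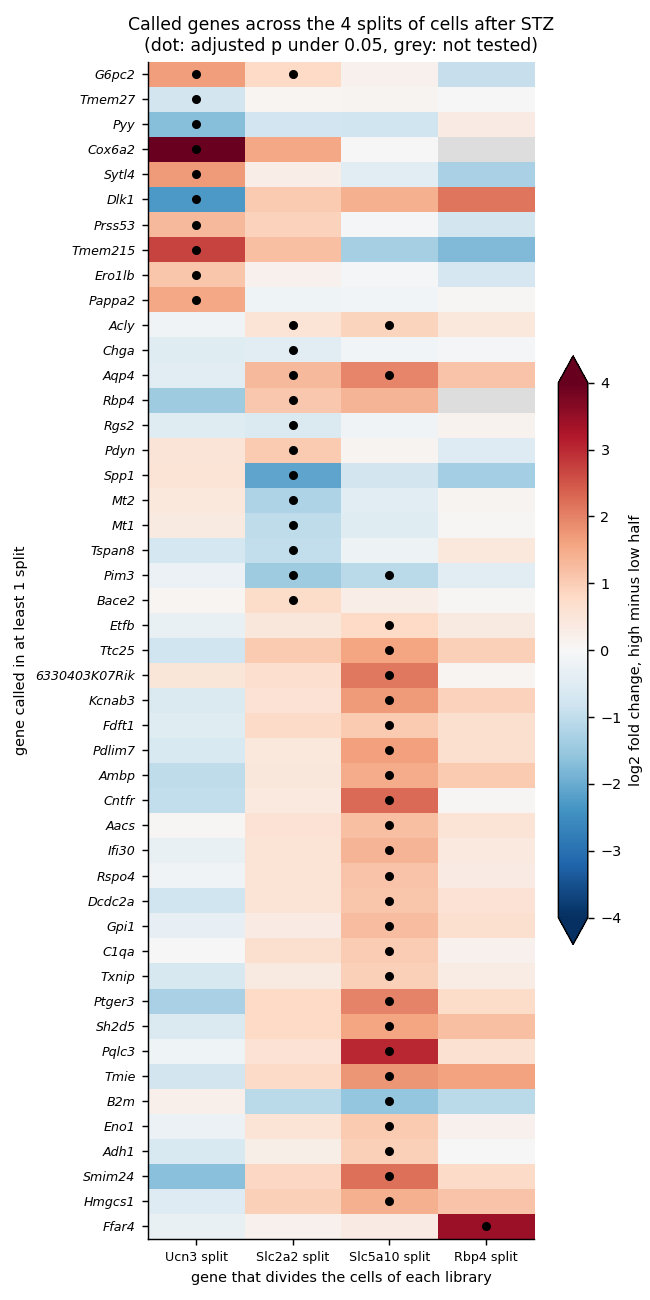
Log2 fold change between cells above and not above the library median of Ucn3, Slc2a2, Slc5a10 or Rbp4 (columns) for 47 genes called in at least 1 comparison (rows); dots mark calls and grey cells were not tested. The colour scale ends at 4 on either side; Aqp4 is red under Slc2a2 and Slc5a10, and the genes called for Slc5a10 are mostly pale blue under Ucn3.

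Whether these relations are also found in control beta cells was tested with the control libraries, in a model chosen after seeing the data. Dividing control cells by Ucn3 called 4 of 9435 genes (0.0424%), all lower in Ucn3-high cells: Gpx3, Rbp4, Tspan8 and Rbms3. Gpx3 was at 14.9, 17.1 and 23.6 in the Ucn3-high cells of control replicates 1, 2 and 3, and at 79.6, 66.1 and 49.0 in their Ucn3-low cells (log2 fold change -1.70, SE 0.18, adjusted p = 1.66e-06). Rbp4 was at 2.03, 2.27 and 2.89 against 18.8, 28.8 and 11.2 (-2.93, SE 0.56, adjusted p = 0.0318). For both genes, the 3 values of Ucn3-high cells lay below the 3 values of Ucn3-low cells. These are class means. Over single cells of control replicates 1, 2 and 3, Spearman's rho with Ucn3 was -0.49, -0.47 and 0.18 for Gpx3. For Rbp4 it was -0.24, -0.41 and -0.07. Control replicate 3 had 21 cells, 7 of them hormone-rich. The count of genes called in control cells was 1 to 6 in the alternatives.

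Of 9435 genes, 4 differed in this contrast between STZ and control (0.0424%): Gpx3, Cox6a2, Tmem215 and Pappa2. For Gpx3 the contrast after STZ was -0.29 (SE 0.11), 1.41 above that in control (SE 0.21, adjusted p = 0.00178). For Cox6a2 it was 3.56 after STZ, 2.96 above control (SE 0.51, adjusted p = 0.0104), where Cox6a2 was at 46.3 to 51.2 and 30.2 to 42.3 in the 2 classes. For Tmem215 it was 2.17 above control and for Pappa2 2.45 above (both adjusted p = 0.0104). For Rbp4 the contrast was -1.42 after STZ, and its difference from control was not called (1.504, SE 0.64, adjusted p = 1.00). Without hormone-rich cells, and so without STZ_M2, 0 genes differed by edgeR (4 without STZ_M2 alone), with Gpx3 at 1.04 and adjusted p from 0.241 to 1.00 for the 4 genes. Without control replicate 2 or control replicate 3 the count was 1. Gpx3 passed with any 1 library left out (1.29 to 1.54), while Cox6a2, Tmem215 and Pappa2 did not without control replicate 2 or 3 (adjusted p 0.080 to 0.159). Tmem215 also missed the threshold without control replicate 1 (adjusted p = 0.188) or STZ_D12 replicate 2 (0.0713), and Pappa2 without STZ_M5 (0.0517).

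Between Slc2a2 classes, 2 of 9526 genes differed between STZ and control (0.021%). Rbp4 was lower in the Slc2a2-high cells of all 3 control libraries (7.53, 6.83 and 3.32 against 13.4, 24.3 and 10.8) and had a log2 fold change of 1.08 after STZ, a difference of 2.47 (SE 0.42, adjusted p = 0.0305). Without hormone-rich cells, and so without STZ_D12 replicate 1, Rbp4 differed by 2.66 (adjusted p = 0.442), and 0 genes were called (2 without that library alone). Without STZ_D12 replicate 2, STZ_D42, STZ_M9, control replicate 2 or control replicate 3, Rbp4 differed by 2.28 to 2.42 (adjusted p 0.0678 to 0.218). The test over libraries of the mean log2(value + 1) gave 0.91 ± 0.66 (n = 7) after STZ and -0.30 ± 0.50 (n = 3) in control for Rbp4 (exact permutation p = 0.0333, adjusted over 3 comparisons 0.1), and on that scale control replicate 3 was at 0.26 and the other controls at -0.44 and -0.71. For Slc2a2 between Ucn3 classes it gave 0.25 ± 0.91 and 0.70 ± 0.22 (adjusted exact permutation p = 0.700), and for Rbp4 between Ucn3 classes -1.22 ± 1.07 and -0.92 ± 0.60 (adjusted exact permutation p = 0.733).

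**Figure D5:**
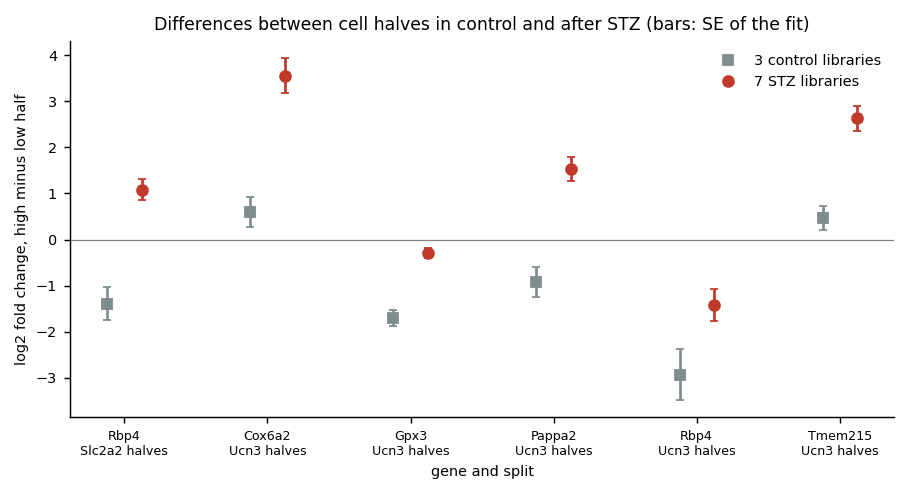
Log2 fold change (± SE of the fit) between cells above and not above the library median of the dividing gene, in 3 control libraries (grey squares) and 7 STZ libraries (red circles). Rbp4 between Slc2a2 classes is below 0 in control and at 1.08 after STZ, and Gpx3 between Ucn3 classes is at -1.70 in control and -0.29 after STZ.

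In 4 of 7 genes tested, the spread between cells was larger in each STZ library used than in each control library. The STZ libraries used were 5 or 6, and no gene passed the adjusted threshold. The 7 genes were picked and are no sample of all genes. The spread is the squared coefficient of variation beyond counting noise, in thinned cells of libraries with at least 10 of them and a mean of at least 1 UMI. For Ucn3 it was 2.28 ± 0.91 (SD, n = 5) after STZ and 0.2997 ± 0.0829 (n = 3) in control (exact permutation p = 0.0357, the smallest possible; adjusted over 7 genes 0.0625). For Slc2a2 it was 2.67 ± 0.75 (n = 5) and 0.240 ± 0.128 (n = 3; exact permutation p = 0.0357, adjusted 0.0625). For G6pc2 it was 1.59 ± 0.59 (n = 6) and 0.180 ± 0.037 (n = 3), and for Ins1 0.490 ± 0.216 and 0.114 ± 0.047 (both exact permutation p = 0.0238, adjusted 0.0625).

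Rbp4 was spread less after STZ (5.15 ± 2.43, n = 6) than in control (12.5 ± 5.28, n = 3; exact permutation p = 0.0476, adjusted 0.0667), where it was rare. Iapp (0.125 and 0.0805, adjusted exact permutation p = 0.194) and Chgb (0.562 and 0.319, adjusted exact permutation p = 0.214) differed by less. The level differed as well: Ucn3 had a mean of 1.79 to 4.31 thinned UMIs per cell after STZ and 18.1 to 23.2 in control, so level and spread cannot be told apart here. Libraries with a mean under 1 UMI were left out (STZ_D12 replicate 2 for Ucn3 and STZ_M9 for Slc2a2). Nnat was not tested because it did not reach the level needed.

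Among 3242 genes with enough UMIs, the median spread over the 6 STZ libraries was 0.428. Among the 15 most variable were the repeat-derived transcript Gm10800 (8.81), S100a6 (6.66), Gm27010 (5.77), Spp1 (5.45), Arl5c (5.22), Ambp (5.17), Akap5 (5.02), 6330403K07Rik (4.58) and, at rank 10, Rbp4 (4.41). Below it came Ptger3 (4.37), the gastrin gene Gast (4.36), Hmgb2 (4.06) and the peptide gene Cartpt (4.00). Slc2a2 ranked 22, Ucn3 54, Slc5a10 64 and G6pc2 72, while Gpx3 ranked 1523 of 3242. Ambp, 6330403K07Rik and Ptger3 were also called in the comparison by Slc5a10.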

How the data were processed

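The authors deposited 1 table of UMI counts per gene and cell and 1 table of signal, in which the deposited value is the UMI count per 100000 UMIs of the cell without 8 hormone genes (recomputed within 0.005). The submitters' processing notes name TopHat2 2.1.0, SAMtools 1.3.1, featureCounts 1.5.3, UMI-tools 0.5.0 and mm10. Members and gene lists were chosen with earlier results of these data known. Members were taken by hormone signal, and no doublet caller was run. In each library with at least 6 members, cells above the library median of Ucn3, Slc2a2, Slc5a10 or Rbp4 were compared with the others (at least 3 cells each). UMI counts were summed per library and class and tested with edgeR 4.0.16 (TMM, filterByExpr, quasi-likelihood F test, library as block, Benjamini-Hochberg adjusted p under 0.05 over all genes tested), with DESeq2 1.42.0 as an alternative (R 4.3.3). The dividing gene was left out. Some genes that the rule names are counted but not reported here. Values over libraries were tested by exact two-sided permutation (SciPy 1.17.1). The edgeR step was tested on simulated data.

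Named genes were, in each comparison, up to 8 called genes per direction with the largest change and a mean log2 CPM of at least 5, called list members, the 8 highest and 4 lowest correlation partners, and the 15 most variable genes. Members held 16898 to 250666 UMIs. Alternatives were thinned cells, cells divided within sequencing run, the upper against the lower tertile, no hormone-rich cells, no hormone genes, no count filter, a pseudocount of 10 and each library left out. The sequencing run was read from the first part of the raw read file names. It was not given for STZ_D12 replicate 2, and STZ_D6, STZ_D30 and STZ_M5 came from 2, 2 and 3 runs by these names.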

Additional observations from a re-analysis of the deposited data

Results flagged for a closer look

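The median Slc5a10 signal over members was 34.8 in STZ_D42, far above that of the other 7 libraries (0 to 12.3). This was 1 of 23 sets of libraries examined for such a value, and chance alone marks about 1 set in 20. In STZ_D42, 80% of 15 members had a Slc5a10 UMI.

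Some genes differed between cell classes to another extent after STZ than in control, by the interaction term of the edgeR model. For the division by Ucn3, the STZ value minus the control value (log2) was 1.41 for Gpx3, 2.96 for Cox6a2, 2.17 for Tmem215 and 2.45 for Pappa2. For the division by Slc2a2 it was 2.47 for Rbp4. None of these 5 genes passed the threshold without hormone-rich cells, and each kept its sign in the alternatives run.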

How the results depend on the processing

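Counts of called genes depended on the settings more than the direction of single genes did. No called gene changed sign in any alternative in which it was tested. In 226 values a called gene missed the threshold, and 727 values kept their side of it. The 727 are not all values of called genes. Among them are Gpx3 differences and the spreads of G6pc2, Ins1, Iapp and Chgb, which missed the threshold in the main setting too. Counts of genes called in control cells are also among the 727. For the comparisons by Ucn3, Slc2a2, Slc5a10 and Rbp4 (12, 15, 28 and 2 genes), no count filter gave 44, 40, 93 and 43, and DESeq2 gave 32, 27, 45 and 25. Comparing the upper with the lower tertile of cells gave 22 for Ucn3 and 6 for Rbp4. Leaving out hormone-rich cells, and with them STZ_D12 replicate 1, gave 0 for Slc2a2 and 11 for Slc5a10, against 15 and 26 without that library alone. Leaving out 1 library gave 8 to 21, 7 to 15, 15 to 26 and 2 to 11. With each setting the share of higher genes could move, from 58.3% to 45.5% for Ucn3 and from 92.9% to 63.4% for Slc5a10 without the filter. The genes that differed between STZ and control (4 for Ucn3, 2 for Slc2a2) were 0 and 0 without hormone-rich cells, and 1 to 6 and 0 to 2 with 1 library left out.

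Slc5a10 between Ucn3 classes turned from -0.35 to 0.0029 in thinned cells. The STZ minus control difference of Rbp4 between Ucn3 classes (-0.29) ranged from -0.56 to 0.052 with 1 library left out. That of Rbp4 between Slc2a2 classes ranged from 1.00 to 1.49, and without STZ_D12 replicate 1 it was 1.15 and passed the threshold (adjusted exact permutation p = 0.0476). The spread of Rbp4, lower by 7.36 after STZ, was higher by 0.93 as an SD of log2 values.

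The labels number STZ and control libraries alike, but the numbers tie no mice together. With the replicate number as a block (replicate block), the STZ minus control difference of Slc2a2 and of Rbp4 between Ucn3 classes was -0.95 and 0.051, and that of Rbp4 between Slc2a2 classes was 1.22 (adjusted exact permutation p from 0.429 to 0.857). The spread differences were 1.96 for Ucn3, 2.38 for Slc2a2 and -9.07 for Rbp4 under that block. Depth limits genes with few UMIs per cell, such as Cox6a2.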
